A study of Mus musculus with 6 samples.

Results

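The 37 genes described here encode proteins of DNA double-strand break repair, and were taken as a fixed list from 21887 protein-coding genes. They comprise 5 genes of damage signalling, 7 of end resection, 11 of homologous recombination, 7 of classical end joining, 4 of alternative end joining and 3 of the Fanconi pathway. A gene was counted as holding a break-enriched site where the summit of a peak, its point of highest enrichment, lay inside the gene body or within 1 kb of either end (RefSeq coordinates, build mm10). The peaks came from BrITL, in which DNA ends in permeabilised cells are tagged with a biotinylated nucleotide, pulled down on streptavidin beads and sequenced. The question was where ends gather when replication is slowed while the ATR checkpoint kinase is inhibited. All 6 samples were passage-immortalised mouse embryonic fibroblasts that carry 1 disrupted Atr allele (ATR+/-) and express Bcl-xL, an anti-apoptotic protein. The treated samples (2 pull-downs and 1 input) had 18 h of 1 µM ATR-45, an ATR inhibitor, with 0.2 µM aphidicolin, an inhibitor of replicative DNA polymerases, and the DMSO samples (2 pull-downs and 1 input) had 18 h of vehicle. The files hold 1 peak list per condition, each made from pooled samples, so no value below has a replicate error and none of the differences was tested. They hold no expression values against which the labelled cell type could be checked.

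A double-strand break is first bound and marked by signalling proteins such as the kinase ATM. It is then either rejoined directly by the Ku, DNA-PK and ligase IV proteins of classical end joining, or trimmed to single-stranded DNA by nucleases and helicases, a step called resection. Resected ends can be repaired by homologous recombination, which copies an intact sister and needs BRCA1, BRCA2 and their partners, or by alternative end joining, which uses polymerase theta, PARP1 and ligase III. The Fanconi proteins act on crosslinks and on stalled replication forks. The question put to the data here was whether the genes that encode these proteins themselves carried break-enriched sites, which says nothing on their RNA or protein levels, as neither was measured.

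Of the 37 genes, 1 held a treated summit (Fancd2, 2.70%) and 15 held a DMSO summit (40.5%). Over all protein-coding genes, the same rule was met by 1.16% in the treated list and by 23.8% in the DMSO list. In the treated list 1 gene is too few to set the members apart from that background. No gene held summits of both lists, where 0.859% of protein-coding genes did. The 15 genes held 17 DMSO summits, since Rad51b held 3. The lists differ in more than the treatment: the treated list has 491 peaks with −log10 q down to 3.38, and the DMSO list has 6444 peaks with −log10 q down to 18.5, so an absent peak does not show that ends were absent. With the caller's values turned back into fragment numbers, the smallest number of pull-down fragments over a summit was 35 in both lists, against a genome background of 5.14 fragments (treated) and 2.88 fragments (DMSO). These numbers are before scaling. To be set against the input term, each pull-down fragment counts as 0.439 (treated) or 0.805 (DMSO). On that scaled count the genome background is 2.26 (treated) and 2.32 (DMSO).

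**Figure D1:**
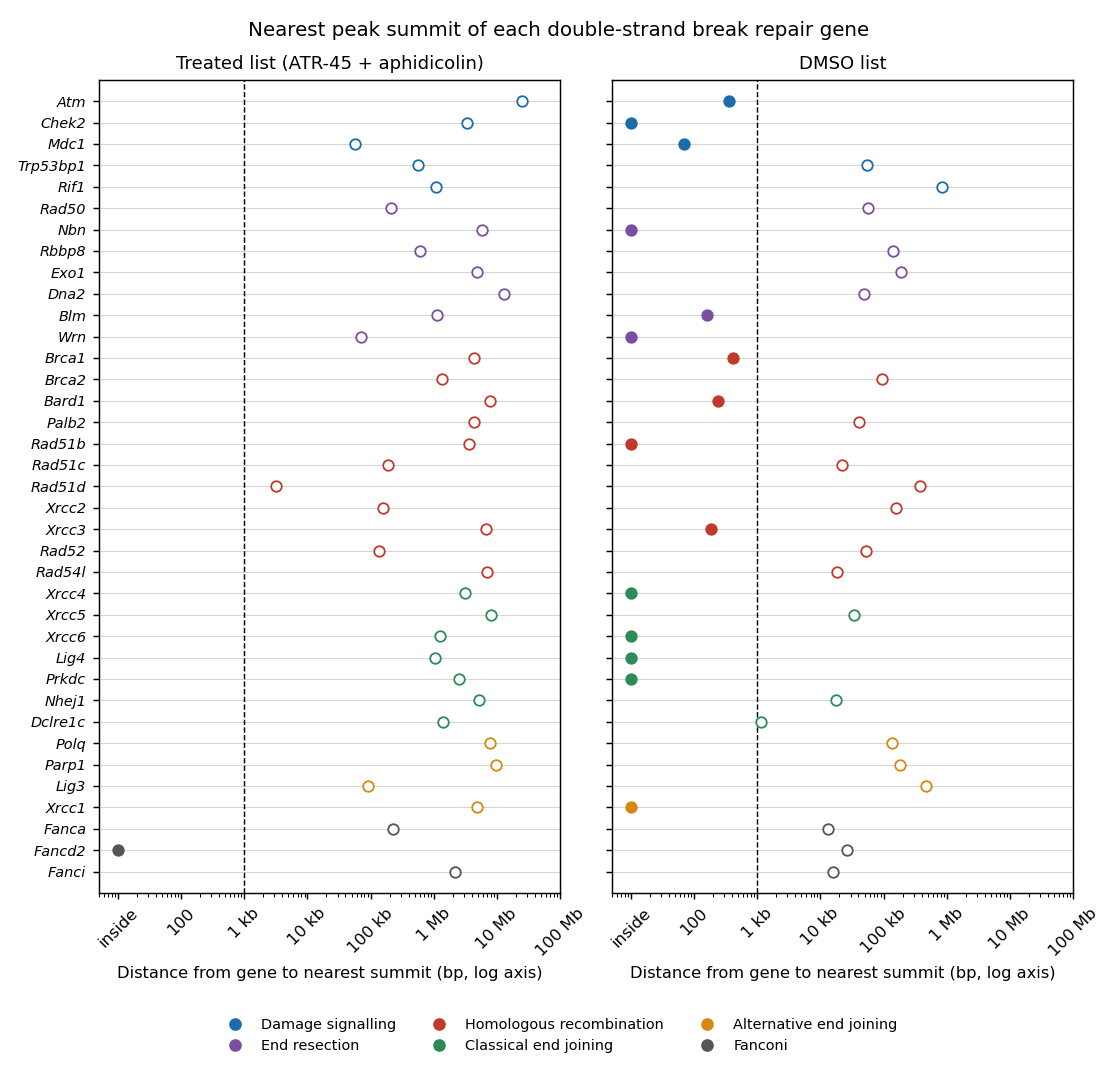
Distance in bp, on a log axis, from each of the 37 genes (rows, coloured by role) to the nearest summit of the treated list (left) and the DMSO list (right); genes with a summit inside the body are drawn at the tick named inside, filled points are genes that held a summit by the 1 kb rule, and the dashed line marks 1 kb. Fancd2 is the single filled point of the treated list, 15 genes are filled in the DMSO list, and Dclre1c lies just beyond the line at 1142 bp.

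The share of genes with a DMSO summit varied with role. It was 3 of 5 for damage signalling, 3 of 7 for resection, 4 of 11 for homologous recombination, 4 of 7 for classical end joining, 1 of 4 for alternative end joining and 0 of 3 for Fanconi genes. With so few genes per role, these counts describe the list and do not order the pathways. The nearest DMSO summit lay at a median of 17.8 kb from a listed gene (quartiles 0.069 and 55.9 kb), and at a median of 66.9 kb from a protein-coding gene (quartiles 2.53 and 345 kb). For treated summits the medians were 2205 kb for the listed genes and 2126 kb for all protein-coding genes, so the treated list was about as remote from both.

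**Figure D2:**
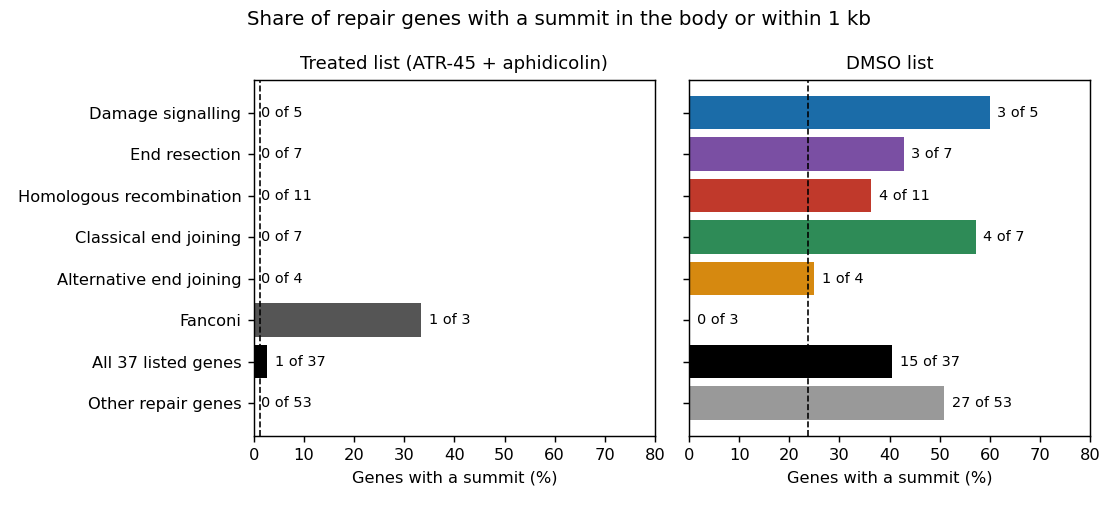
Share of genes, in percent, with a summit in the body or within 1 kb, by role, for all 37 genes and for 53 other repair genes, in the treated list (left) and the DMSO list (right); dashed lines mark the share of all protein-coding genes (1.16% and 23.8%). In the treated list the single bar among the roles is that of Fancd2, and in the DMSO list 5 of the 6 roles lie above the line, alternative end joining by 1 gene of 4.

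Promoters are shown for Mdc1, which had the DMSO peak of highest fold, for Brca1 and Atm, whose peaks lay at a gene end shared with a neighbour, for Xrcc4, whose summit was nearest to an end of its gene, and for Parp1, which had no DMSO summit within 181 kb. Each runs 5′ to 3′ on the gene's strand, from 250 bases before to 50 bases after a RefSeq start (RefSeq, GRCm38.p6, the same assembly as mm10). They lie at chr17:35841248-35841547 (Mdc1, plus strand), chr11:101551906-101552205 (Brca1, minus strand), chr9:53536622-53536921 (Atm, minus strand), chr13:90089559-90089858 (Xrcc4, minus strand) and chr1:180568641-180568940 (Parp1, plus strand). Capitals mark matches on either strand to the GC box GGGCGG, the CCAAT box CCAAT, the TATA box TATAAA and the ETS core CGGAAG. A GC box and an ETS core can share letters, as they do once in Xrcc4.
Mdc1: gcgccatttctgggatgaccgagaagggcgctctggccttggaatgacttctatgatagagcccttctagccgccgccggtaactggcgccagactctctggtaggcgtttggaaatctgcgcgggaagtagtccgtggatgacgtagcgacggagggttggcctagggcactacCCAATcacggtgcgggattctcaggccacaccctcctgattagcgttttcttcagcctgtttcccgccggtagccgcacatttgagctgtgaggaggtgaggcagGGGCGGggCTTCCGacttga
Brca1: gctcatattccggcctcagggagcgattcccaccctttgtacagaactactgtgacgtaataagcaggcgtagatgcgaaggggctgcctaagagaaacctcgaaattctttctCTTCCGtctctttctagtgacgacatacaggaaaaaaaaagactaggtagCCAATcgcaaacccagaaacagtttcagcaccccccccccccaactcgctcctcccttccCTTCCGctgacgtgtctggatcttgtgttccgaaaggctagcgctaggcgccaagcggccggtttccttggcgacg
Atm: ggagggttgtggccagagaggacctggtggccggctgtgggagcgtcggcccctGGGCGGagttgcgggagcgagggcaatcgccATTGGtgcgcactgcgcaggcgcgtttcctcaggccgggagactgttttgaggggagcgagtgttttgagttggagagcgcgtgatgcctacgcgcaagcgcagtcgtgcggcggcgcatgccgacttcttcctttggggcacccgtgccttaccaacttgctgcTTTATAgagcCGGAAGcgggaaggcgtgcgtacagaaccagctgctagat
Xrcc4: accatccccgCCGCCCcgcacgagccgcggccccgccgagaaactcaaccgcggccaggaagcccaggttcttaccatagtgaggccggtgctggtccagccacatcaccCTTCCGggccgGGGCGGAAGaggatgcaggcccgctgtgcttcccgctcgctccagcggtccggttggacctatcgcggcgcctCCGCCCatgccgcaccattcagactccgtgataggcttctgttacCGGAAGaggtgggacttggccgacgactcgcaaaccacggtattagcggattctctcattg
Parp1: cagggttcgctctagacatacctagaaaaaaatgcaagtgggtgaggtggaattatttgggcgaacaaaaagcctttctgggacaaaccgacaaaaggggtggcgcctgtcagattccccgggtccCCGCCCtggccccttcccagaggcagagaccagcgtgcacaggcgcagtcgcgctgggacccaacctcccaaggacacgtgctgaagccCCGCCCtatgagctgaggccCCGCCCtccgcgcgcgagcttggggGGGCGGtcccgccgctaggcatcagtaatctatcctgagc
All 300 bases of the first 4 windows lay under a DMSO peak and 0 of the Parp1 window did. The GC content was 59.7% in Mdc1, 53.7% in Brca1, 64.0% in Atm, 65.7% in Xrcc4 and 62% in Parp1, so the window without a peak was within the range of the others. By count of CpG, Xrcc4 had 31, Atm 28, Mdc1 22, Parp1 20 and Brca1 19.

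Among the damage signalling genes, Atm, Chek2 and Mdc1 held a DMSO summit, and Trp53bp1 and Rif1 did not. Mdc1 encodes the scaffold that binds phosphorylated histone H2AX at breaks. Its peak had the highest fold of all 17, at 23.1, which is above 99.2% of the DMSO list, with 94 pull-down fragments over the summit. It was also the widest, at 8835 bp (chr17:35834789-35843623), running from −6637 to 2197 bp relative to the summit. Most of the peak thus lay outside Mdc1, before its low-coordinate end. The summit lay 72 bp before the RefSeq start, inside the promoter window printed above. Further DMSO peaks lay past the other end of Mdc1, at 1487 bp (fold 10.02, beside Nrm) and 6723 bp (fold 7.93, beside Ppp1r18), so peaks lay on both sides of this gene. Atm encodes the kinase that starts the response to a break. Its peak (chr9:53535551-53538178) had a fold of 11.7 and 47 fragments. The summit lay 355 bp outside Atm and 294 bp from an end of Npat, a regulator of histone gene transcription. Chek2, which encodes a checkpoint kinase activated by ATM, had a peak at chr5:110838469-110841596 with a fold of 11.2 and 68 fragments. That summit lay 37 bp inside Chek2 and 44 bp from an end of Hscb, an iron-sulphur cluster co-chaperone gene. Its input term of 4, on the scaled count, was above the genome background of 2.32. Trp53bp1 and Rif1, whose products hold back resection, were 54.6 and 829 kb from the nearest DMSO summit, and Rif1 was the farthest of the 37.

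Of the resection genes, Nbn, Blm and Wrn held a DMSO summit, and Rad50, Rbbp8, Exo1 and Dna2 did not. Nbn encodes a subunit of the MRN complex that binds broken ends. Its peak (chr4:15957138-15959331) had a fold of 11.96 and 48 fragments, with the summit 1097 bp inside the gene. Blm and Wrn both encode RecQ helicases. Their peaks had identical values, a fold of 8.70, 42 fragments and an input term of 3 on the scaled count, and stood low in the list, above 13.5% of DMSO peaks. The Blm peak (chr7:80533890-80535830) had its summit 159 bp outside the gene, and the Wrn peak (chr8:33384516-33387406) had its summit 226 bp inside Wrn and 302 bp from an end of Purg. Rad50, the partner of Nbn in the MRN complex, was 55.9 kb from the nearest DMSO summit. Dna2 and Exo1, the nucleases of long-range resection, were 49.8 and 188 kb away, and Rbbp8, which encodes the factor that starts resection with MRN, was 140 kb away.

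The homologous recombination genes divided into Brca1, Bard1, Xrcc3 and Rad51b, which held a DMSO summit, and Brca2, Palb2, Rad51c, Rad51d, Xrcc2, Rad52 and Rad54l, which did not. Brca1 encodes a ubiquitin ligase subunit that favours resection, and Bard1 encodes its partner. The Brca1 peak (chr11:101550638-101554273) had a fold of 15.5, above 86.1% of the list, with 76 fragments. Its summit lay 417 bp outside Brca1 and 265 bp from an end of Nbr1, an autophagy receptor gene. The Bard1 peak (chr1:71102031-71104298) had a fold of 11.5 and 46 fragments, with its summit 237 bp outside the gene and no neighbouring gene end within 1 kb. Both partners of this complex therefore held a summit just outside the end that holds their RefSeq start. Xrcc3 encodes a protein of homologous recombination that works in a complex with the product of Rad51c. Its peak (chr12:111812516-111815961) had a fold of 13.2 and 53 fragments, and its summit lay between an end of Xrcc3 at 184 bp and an end of Zfyve21 at 89 bp. Rad51c, Xrcc2 and Rad51d, whose products act in related complexes, were 21.7, 160 and 382 kb from a DMSO summit. Brca2 and Palb2, which encode a mediator of recombination and its link to BRCA1, were 95.4 and 40.5 kb away. Rad52 and Rad54l, for a strand-annealing protein and a DNA translocase, were 53.2 and 18.5 kb away.

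Rad51b differed from the rest in where its summits lay. The gene spans 551 kb, the longest of the 37, and its 3 DMSO summits lay 175 kb, 235 kb and 248 kb from the nearer end, with none near a RefSeq start. The peaks were at chr12:79471435-79472588, chr12:79531619-79533783 and chr12:79600040-79601634. They had folds of 7.61, 10.5 and 10.7 and were 1154, 2165 and 1595 bp wide. The fold of 7.61 was the lowest of the 17 peaks, above 9.29% of the DMSO list. In the DMSO list as a whole, 20.1% of summits lay inside a protein-coding gene with no gene end within 1 kb.

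Classical end joining had 4 genes with a DMSO summit, Xrcc4, Xrcc6, Lig4 and Prkdc, and 3 without, Xrcc5, Nhej1 and Dclre1c. Xrcc6 and Xrcc5 encode the Ku70 and Ku80 subunits of the ring that binds broken ends. The Xrcc6 peak (chr15:82014929-82017244) had a fold of 15.6, above 86.7% of the list, and 63 fragments. RefSeq extends this gene beyond its listed promoter, and the summit lay 168 bp after the RefSeq start, 279 bp from an end of Desi1. Xrcc5 had no DMSO summit within 34.3 kb, so the genes of the Ku subunits differed. Xrcc4 and Lig4 encode the partners of the ligase that seals the break. The Xrcc4 peak (chr13:90088324-90091149) had a fold of 11.5 and 46 fragments. Its summit lay 34 bp inside Xrcc4, the nearest of the 17 to an end of its gene, and 93 bp from an end of Tmem167. Lig4 had a peak at chr8:9975422-9978743 with a fold of 9.77 and 39 fragments, with the summit 1468 bp inside the gene and 99 bp after the later of its 2 listed starts. Prkdc, which encodes the catalytic subunit of DNA-PK, had the peak with the fewest fragments of the 17, 38, and a fold of 9.53 (chr16:15636005-15639053). Its summit lay 397 bp inside Prkdc and 441 bp from an end of Mcm4, which encodes a subunit of the replicative helicase. Nhej1, for the ligase cofactor XLF, was 17.8 kb from a DMSO summit.

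Dclre1c, for the nuclease Artemis, missed the 1 kb rule by the smallest margin. A DMSO summit (fold 11.2, 45 fragments) lay 1142 bp past its high-coordinate end, 367 bp from an end of Suv39h2, a histone methyltransferase gene, and the promoter of Dclre1c lies at its other end. Just inside the rule were Brca1 at 417 bp and Atm at 355 bp outside their gene bodies. No listed gene had its nearest DMSO summit between these values.

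Of the alternative end joining genes, Xrcc1 alone held a DMSO summit. It encodes a scaffold for ligase III. The peak (chr7:24545477-24548340) had a fold of 10.3 and 41 fragments, and its summit lay 146 bp after the RefSeq start and 177 bp from an end of Pinlyp. Lig3, for ligase III, was 468 kb from a DMSO summit. Polq, for polymerase theta, and Parp1, for the poly(ADP-ribose) polymerase that senses breaks, were 137 and 181 kb away.

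Fancd2 encodes, with its partner Fanci, the complex that the Fanconi ubiquitin ligase marks at stalled forks. It held the only treated summit of the 37 genes and no DMSO summit. The treated peak (chr6:113541990-113542418) was 429 bp wide, with a fold of 4.64 and −log10 q of 3.66. It had 40 pull-down fragments before scaling and an input term of 3 on the scaled count. It stood above 20.9% of the treated list by fold, so it was among its weaker peaks. The summit lay 10.6 kb inside the gene. Measured from this summit, the nearest other treated summit was 215 kb away and the nearest DMSO summit 81.5 kb away. Measured from the gene, as for the other listed genes, the nearest DMSO summit was 26.7 kb away. In the treated list 24.6% of summits lay inside a protein-coding gene with no gene end within 1 kb. The call was lost when peaks were held to −log10 q of at least 5 or to the median fold of their list. Fanci had no summit of either list and was 16.1 kb from the nearest DMSO summit. Fanca, for a subunit of the Fanconi ligase, had none either and was 13.3 kb away.

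Treated peaks were few (491), with medians of 2205 kb to the nearest from the listed genes and 2126 kb from all protein-coding genes. Distances from DMSO peaks to treated peaks were not taken over the whole DMSO list. Of the 17 DMSO peaks at the listed genes, 0 overlapped a treated peak, where 2.90% of all DMSO peaks did, so a count of 0 is near that background. Treated summits came nearest to those at Mdc1 (75.3 kb) and Wrn (130 kb), and at Atm the nearest treated summit was 24945 kb away. Beside Fancd2, the listed gene nearest to a treated summit was Rad51d, at 3195 bp, with a fold of 4.53 and 39 fragments. Of the 37 genes, 25 had no treated summit within 1 Mb (67.6%), close to the 65.6% of protein-coding genes of which this was true.

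Of the 17 DMSO summits, 9 lay within 1 kb of an end of a neighbouring protein-coding gene, a count not taken over all DMSO summits. Any protein-coding gene end, own or neighbouring, lay within 1 kb of 12 of the 17, against 57.2% of all DMSO summits. Of the 11 genes with a DMSO summit within 1 kb of an end (29.7% of the 37, against 19.5% of protein-coding genes), 8 had an end of another protein-coding gene within 1 kb of the same summit. These pairs were Atm with Npat, Chek2 with Hscb, Wrn with Purg, Brca1 with Nbr1, Xrcc3 with Zfyve21, Xrcc4 with Tmem167, Prkdc with Mcm4 and Xrcc1 with Pinlyp. Over all protein-coding genes with such a summit, the share was 33.1%. Counted by summit, 8 of the 12 with any gene end within 1 kb had ends of at least 2 genes there, against 19.6% of such summits in the DMSO list. Of the 37 listed genes, 20 had an end of another protein-coding gene within 1 kb of an end of their own, against 24.8% of protein-coding genes. Among genes with such a neighbour, 11 of 20 listed genes (55.0%) and 39.3% of protein-coding genes held a DMSO summit. Among genes without one it was 4 of 17 listed genes (23.5%) and 18.7% of protein-coding genes. The share of genes with a DMSO summit thus moved with close neighbours in the list and outside it, and the part of this layout in the count of 15 was not tested. Of the 8 pairs, Xrcc3 had its summit between the 2 gene ends. At Atm and Brca1 the summit lay outside the repair gene and past both ends, with the neighbour's end nearer. These distances were 294 bp against 355 bp at Atm and 265 bp against 417 bp at Brca1. In the other pairs the summit lay inside the repair gene, with both ends on the same side. For a summit near ends of 2 genes, the lists cannot tell which gene it belongs to.

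**Figure D3:**
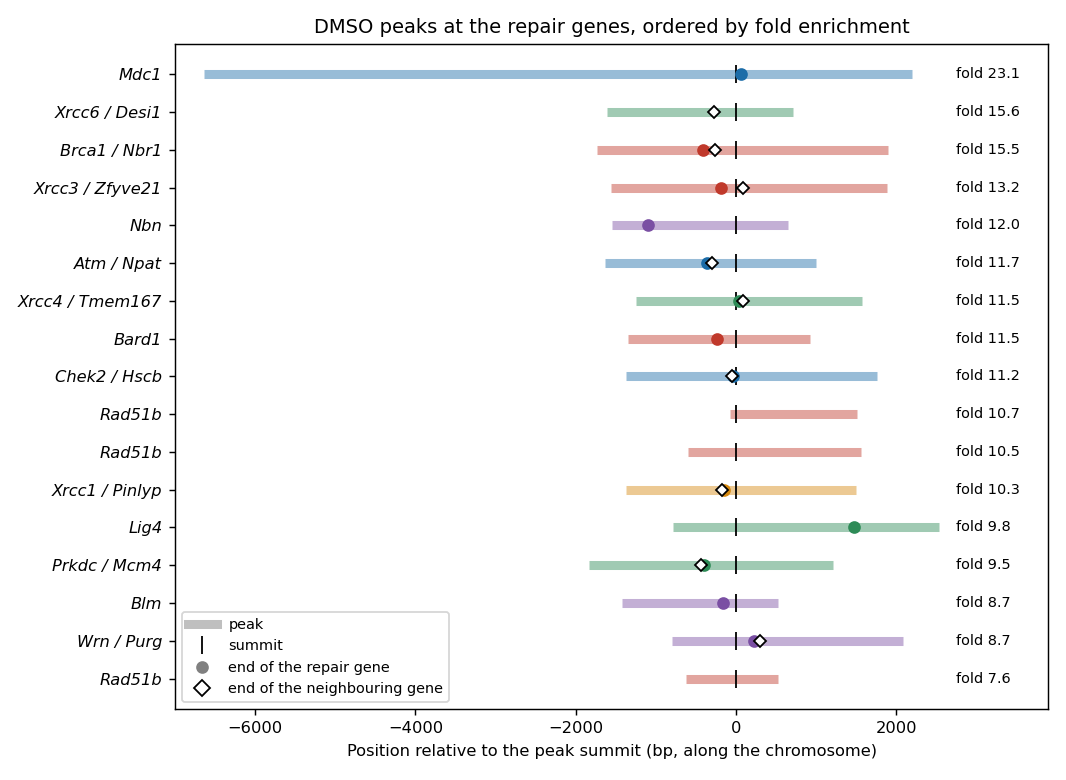
Extent of the 17 DMSO peaks at the repair genes (bars, coloured by role as in the plot of nearest summits), in bp relative to the summit along the chromosome, ordered by fold; filled circles mark ends of the repair gene and open diamonds the nearest end of a neighbouring protein-coding gene within 1 kb of the summit. A diamond is drawn for 9 of the 17 peaks, the Mdc1 peak is the widest at 8835 bp, and the 3 Rad51b peaks have no gene end.

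The listed genes were long, with a median of 52.3 kb against 17.2 kb for protein-coding genes, which bears on a rule that counts summits anywhere in the body. Of the 16 listed genes of 10 to 50 kb, 5 held a DMSO summit, where 27.1% of protein-coding genes of that length did. From 50 to 100 kb it was 5 of 13 (against 33.3%), and above 100 kb 4 of 7 (against 28.9%). The single listed gene under 10 kb, Lig4, held one, where 15.6% did. At an end within 1 kb, the counts were 0 of 1 under 10 kb (against 14.4%), 4 of 16 from 10 to 50 kb (against 22.7%), 4 of 13 from 50 to 100 kb (against 26.0%) and 3 of 7 above 100 kb (against 17.6%). With length classes of 1 to 16 genes, these shares are descriptions.

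Other ways of assigning a summit to a gene gave these counts among the 37. In the treated list it was 1 (Fancd2) for summits inside the body (against 0.758% of protein-coding genes) and for peak intervals (against 1.18%), 2 within 5 kb (against 1.40%) and 2 within 10 kb (against 1.78%), the added gene being Rad51d. It was 0 for summits within 1 kb of a gene end (against 0.685%) and for peaks at or above the median fold (against 0.649%). It was also 0 for −log10 q of at least 5 (against 0.539%) and at or above the DMSO minimum (against 0.00457%). For RefSeq starts it was 0 of the 27 listed genes with a promoter window (against 0.732% of protein-coding genes with one). Fancd2 has no window, so it could not be counted there. In the DMSO list it was 9 inside the body (against 13.2%), 16 within 5 kb (against 26.6%), 16 within 10 kb (against 29.9%), 16 by peak intervals (against 25.1%) and 9 at or above the median fold (against 14.3%). Dclre1c was the gene added in each of the counts of 16.

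The peaks at the repair genes had values near the medians of the DMSO list. Their median fold was 11.2 (range 7.61 to 23.1), against 10.99 over the list, and 9 of 17 were at or above that median. Brca1, Xrcc6 and Mdc1 each lay above at least 86.1% of the list. Their median width was 2826 bp, against 2855 bp over the list, and their median was 46 pull-down fragments, against 49. The input term was at the genome background for 12 of 17 (70.6%), against 69.3% of the list.

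**Figure D4:**
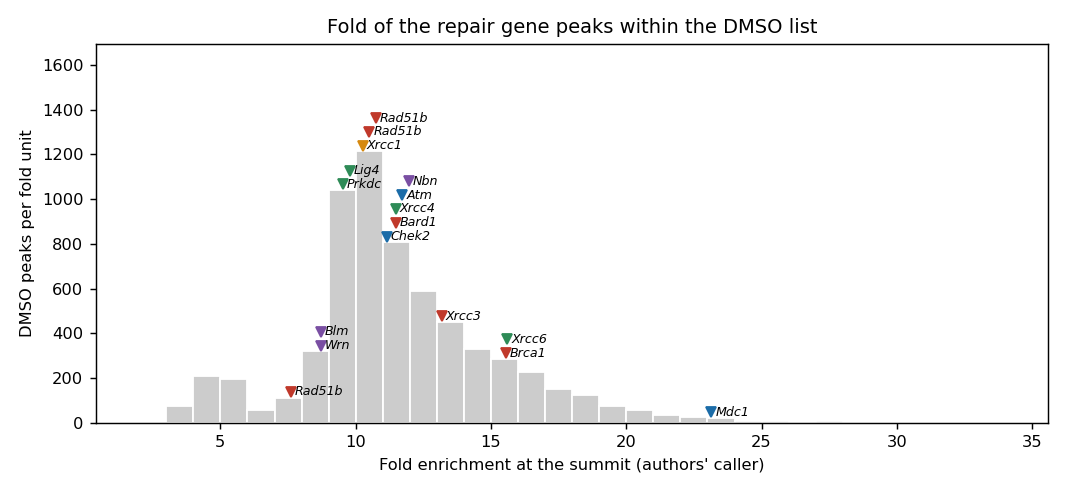
Number of DMSO peaks per unit of fold enrichment (grey bars), with the 17 peaks at repair genes marked by triangles above the bar of their fold and coloured by role. The repair gene peaks run from 7.61 (Rad51b) to 23.1 (Mdc1) and most sit where the list is densest.

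RefSeq promoter windows were at hand for 27 of the 37 genes (31 windows), and 11 of those 27 genes (40.7%) had a DMSO summit within 1 kb of a listed start, against 21.4% of protein-coding genes with a window. The 11 windows had a median GC content of 63.3% and a median of 24 CpG, where all protein-coding windows with such a summit had 64.7% and 25. The 20 windows of listed genes without such a summit had 57.2% and 19 CpG, where all windows without one had 54.0% and 8. Windows were counted and not genes. Lig4, Rad51b, Rad51c and Rad54l have 2 windows each. Those of Rad51b and those of Rad54l overlap, so a match there is counted 2 times. The 20 windows include 1 of Lig4 that lies under the Lig4 peak. They also include both of Rad51b, whose summits lie elsewhere in the gene. Single windows varied: that of Xrcc1 had a summit and 7 CpG, and that of Dna2 had none and 35 CpG. A CCAAT box was found in 8 of the 11 windows with a summit (72.7%, against 44.9% of protein-coding windows with one) and in 8 of the 20 without (40.0%, against 36.5%). A GC box was found in 8 of 11 (72.7%, against 77.2%) and in 13 of 20 (65.0%, against 38.1%). An ETS core was found in 5 of 11 (45.5%, against 34.6%) and in 8 of 20 (40.0%, against 17.6%). A TATA box was found in 1 of 11, that of Atm (9.09%, against 4.58%), and in 1 of 20, that of Brca2 (5.0%, against 14.7%). Over all protein-coding windows the shares were 38.2% for the CCAAT box, 46.2% for the GC box, 21.1% for the ETS core and 12.6% for the TATA box. These are matches of letters and not tested sites.

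Of 53 other repair genes written down for comparison, 0 held a treated summit (against 1.16% of protein-coding genes) and 27 held a DMSO summit (50.9%, against 23.8%). By role it was 11 of 13 for homologous recombination, 4 of 10 for damage signalling, 4 of 9 for resection, 2 of 6 for end joining and 6 of 15 for Fanconi genes. The highest folds were at Usp1, which encodes the enzyme that removes ubiquitin from FANCD2 (19.5), at Fancc, of the Fanconi ligase (18.8), at the nuclease gene Mus81 (17.5), at Sfr1 (17.1) and Swi5 (14.9), whose products form a complex that aids recombination, and at H2ax, for the histone that is phosphorylated at breaks (16.1). Next came Brip1, a helicase gene (14.6), Rmi1, for a subunit of the Blm complex (14.1), Ints3 (14.1) and Fance (13.9). Eme1, for the partner of Mus81, held no summit and was 263 kb from the nearest. Of the 30 DMSO peaks at these 27 genes, 0 met a treated peak, which is near the 2.90% of all DMSO peaks that did.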

How the data were processed

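BrITL pull-downs and inputs were taken from 6 fibroblast samples, and 2 peak lists were used, 1 per condition. Per the peak names in the deposited files, the pooled pull-downs of each condition were compared with its pooled input. Per the submitters' processing notes, the build was mm10 and the tools were MACS2 2.1.0, Picard 1.141, STAR 2.5.2a, bcl2fastq 2.17.1.14 and SAMtools 0.1.19, with no roles. Any entry rule for peaks was not given in the sources used here. A peak carries the authors' fold enrichment at the summit (a ratio), their −log10 p and −log10 q, and a deposited score, which was 10 times the −log10 p cut to a whole number for 100% of peaks. The deposited summit offset plus the peak start gave each summit.

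Genes came from RefSeq GRCm38.p6 (49943 genes on 21 chromosomes), which gives starts and ends without exons, and all 37 names matched. Strand and starts came from the RefSeq promoter windows. Pull-down fragments and the input term were recovered from fold and p with the usual MACS2 formulas (fold as scaled coverage plus 1 over input plus 1, p as a Poisson tail). Scaled coverage is the fragment number times 0.439 (treated) or 0.805 (DMSO). Whole fragment numbers within 0.02 were found for 100% of peaks. The recovery was tried on simulated data, 300 peaks for each list, made with the same formulas, and gave the right numbers for 100%. This does not test the formulas themselves. All simulated fragment numbers lay above the treated median of 42, so lower numbers, down to the minimum of 35 in both lists, were not covered. Simulated input terms were the background or whole numbers alone. The input term cannot fall below the genome background.

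The members, lists and measures were chosen with earlier results of these data known. All 37 genes are accounted for, with values for each peak in a gene or within 1 kb, and other repair genes are named by fold, at most 10. No test was made, as the lists hold no value per sample. Alternatives were the distance of 0, 5 or 10 kb, gene ends alone, peak intervals, stricter peaks and, added later, RefSeq starts. Depth per sample is unknown. The software was pandas 2.3.3, SciPy 1.17.1, NumPy 2.4.6 and matplotlib 3.10.9 under Python 3.11.15. A result that needs an item withheld for evaluation is not reported here.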

Additional observations from a re-analysis of the deposited data

How the results depend on the processing

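The count of 1 listed gene with a treated summit (against 1.16% of protein-coding genes) became 2 within 5 kb (against 1.40%) and 2 within 10 kb (against 1.78%). It became 0 for summits at gene ends (against 0.685%) and at or above the median fold (against 0.649%). It was also 0 at −log10 q of at least 5 (against 0.539%) and at or above the lowest −log10 q of the DMSO list (against 0.00457%). For RefSeq starts it was 0 of the 27 listed genes with a promoter window (against 0.732%). Fancd2 has no window, so that setting could not count it. The count of 15 with a DMSO summit (against 23.8% of protein-coding genes) became 9 for summits inside gene bodies alone (against 13.2%). It was also 9 for peaks at or above the median fold (against 14.3%). It lay between 11 and 16 under the other 7 alternatives (against 19.5% to 29.9%), of which 2 leave the DMSO list as it is. For RefSeq starts it was 11 of the 27 genes with a promoter window (against 21.4%). The count of genes in both lists was 0 under all 9 alternatives. The share of protein-coding genes in both lists ran from 0.00457% to 1.30% under these, so 0 of 37 (0 of 27 for RefSeq starts) is near that background. Of the 53 other repair genes, the treated count was 0 under all 9, where 0.00457% to 1.78% of protein-coding genes held a treated summit. That count of 0 is also near background. Their DMSO count of 27 became 16 inside bodies (against 13.2% of protein-coding genes) and 16 at or above the median fold (against 14.3%). It ranged from 22 to 29 otherwise (against 19.5% to 29.9%). For RefSeq starts, in both lists, only the 45 of these genes with a promoter window could be counted. Of these 45, 22 had a DMSO summit there (48.9%, against 21.4%). RefSeq starts were used after the data were seen. No paired analysis was possible because each list pools its samples, and for the same reason no replicate could be left out. Depth per sample is unknown.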
